A study of Homo sapiens with 4 samples.

Results

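The genes described here are the sensors and membrane-bound transcription factors of the unfolded protein response, with XBP1. They are XBP1, ERN1, ATF6, ATF6B, MBTPS1, MBTPS2, CREB3, CREB3L2 and WFS1, 9 genes chosen by symbol from the 78932 Ensembl genes of the count table. Each symbol matched 1 row, and all 9 passed the filter on low counts, beside 19511 genes tested in all.

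The unfolded protein response matches the folding capacity of the endoplasmic reticulum (ER) to its load. IRE1, encoded by ERN1, cuts a short intron out of XBP1 mRNA, and the joined message encodes an active transcription factor. ATF6 and its relatives are transcription factors held in the ER membrane, which travel to the Golgi and are released there by the site-1 and site-2 proteases. Plasma cells, and the myeloma cells that derive from them, depend on this system because they secrete large amounts of antibody.

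The cells were RPMI 8226, an established line of human multiple myeloma, spelled RPMI82266 in the sample labels, and their RNA was sequenced. One group of 2 libraries came from cells transfected with a CELF2 LNA ASO at 5 nM, an antisense oligonucleotide with locked sugars aimed at the RNA-binding protein gene CELF2. The other group of 2 libraries came from cells given a control LNA ASO, for which the labels state no dose. The time was 72 h in both groups. All libraries share 1 cell line, and whether the label numbers count replicates or different oligonucleotides is not stated. Separate cultures are not mentioned either, so the p-values reflect the spread between these libraries alone, which may be technical.

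Libraries held 23599190 to 26061900 counts with the CELF2 ASO and 24493148 to 29161298 with the control ASO. CELF2 itself was at 56.6 and 48.8 counts scaled to a common library size (CPM) with the CELF2 ASO, against 128 and 128 CPM with the control ASO. It was 2.43-fold lower (log2 fold change -1.28, SE 0.09, edgeR adjusted p = 3.74e-05). The biological coefficient of variation was 13.7% between the CELF2 ASO libraries and 3.58% between the controls. The 8 plasma cell markers summed to 3414 and 2827 CPM with the CELF2 ASO, against 2707 and 2923 CPM with the control. Within that list 3 rose and 4 fell, beside 27.6% of all tested genes called higher and 28.0% called lower. SDC1, which encodes CD138, fell (248 and 154 CPM, against 450 and 489 CPM). CD38 rose (175 and 254 CPM, against 84.0 and 92.5 CPM). The 5 B cell markers summed to 10.3 and 9.25 CPM against 5.39 and 5.58 CPM, and the 5 T and NK cell markers to at most 1.84 CPM in each library of both groups. The 5 myeloid markers summed to 2.42 and 2.68 CPM against 4.86 and 4.94 CPM, with LYZ and S100A8 at 0 in all 4 libraries. The 5 stromal and epithelial markers, mostly EPCAM, summed to 45.2 and 39.4 CPM against 67.1 and 69.1 CPM. The part of these marker shifts in the results was not tested.

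Transcripts of the sensor ERN1 were 5.06-fold higher with the CELF2 ASO, while the log2 fold change of its target XBP1 was 0.02, with a 95% interval of -0.15 to 0.19. ATF6 fell, while its paralog ATF6B rose. The site-2 protease gene MBTPS2, the ATF6 relatives CREB3 and CREB3L2, and WFS1 also rose, and the site-1 protease gene MBTPS1 did not pass the test. Of the 9 genes, 6 were called higher, 1 lower and 2 neither, at an edgeR adjusted p under 0.05. Calls were common across the whole table, where 55.6% of tested genes passed, 27.6% higher and 28.0% lower. The number of genes called higher was 5388, or 3564 without control library 1, and the number called lower was 5460. The median log2 fold change of the 9 genes was 0.74, beside 0.04 over all tested genes. Groups did not overlap for 7 of the 9 genes, against 79.6% of all tested genes. CPM is a share of each library, so a fall in the amount of RNA per cell and a loss of cells cannot be told apart.

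**Figure D1:**
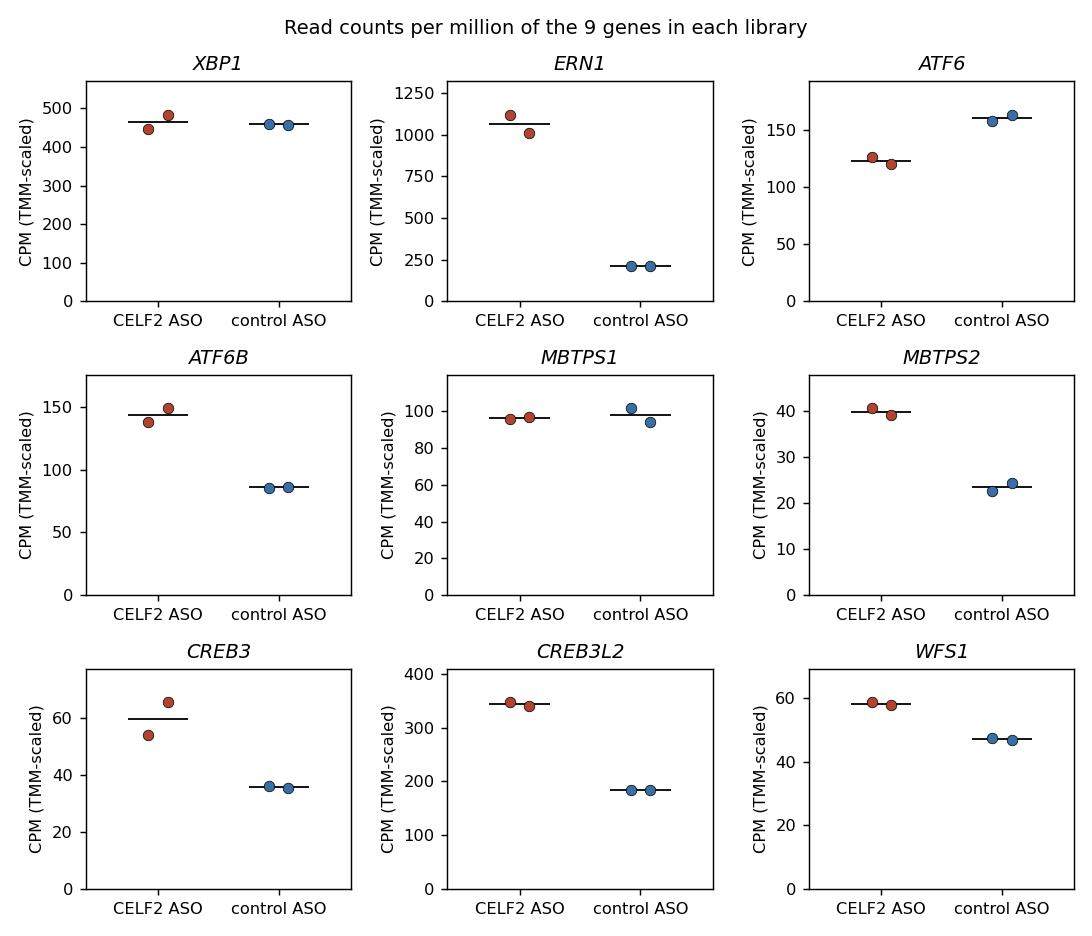
CPM (vertical axis, from 0, scaled by TMM) of each of the 9 genes in the 2 CELF2 ASO libraries (red, left) and the 2 control libraries (blue, right), with the group mean as a line. ERN1 stands at 1119 and 1011 CPM with the CELF2 ASO, against 211 and 210 CPM with the control ASO, and the groups overlap for XBP1 and MBTPS1.

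**Figure D2:**
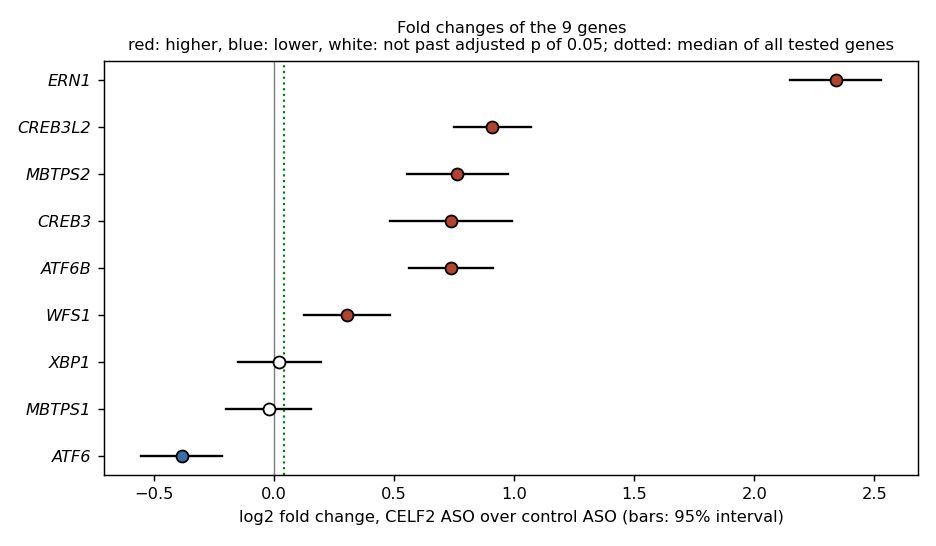
Log2 fold change (horizontal axis, CELF2 ASO over control ASO) of each gene with its 95% interval from edgeR. ERN1 lies at 2.34, ATF6 lies below 0 at -0.38, the intervals of XBP1 and MBTPS1 cross 0, and the dotted line at 0.04 is the median of all tested genes.

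ERN1 (ENSG00000178607, GRCh38 chr17:64039142-64130819, minus strand) encodes IRE1 alpha, an ER membrane protein that is both a kinase and an RNase. It had 1119 and 1011 CPM with the CELF2 ASO, against 211 and 210 CPM with the control ASO. Both CELF2 ASO libraries lay far above both controls. The means were 1065 ± 76.2 CPM and 211 ± 0.544 CPM (SD, n = 2 each). On the log2 scale the difference was 2.34 (SE 0.08, 95% interval 2.15 to 2.53, edgeR adjusted p = 4.87e-06). Over the 12 other settings tried, it ranged between 2.27 and 2.46.

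The RNA that IRE1 cuts is shown because it is the site where ERN1 acts on XBP1. XBP1 (ENSG00000100219, GRCh38 chr22:28794555-28800597, minus strand) encodes a basic leucine zipper transcription factor. In the GENCODE 29 transcripts the excised intron is 26 bases long, at chr22:28796124-28796149 on the minus strand of GRCh38, within exon 4 of the 5 exons of the unspliced transcript. The stretch chr22:28796106-28796167 is given 5′ to 3′ as DNA letters, followed by the same stretch after joining. Capitals mark the bases left out in the annotation.
unspliced XBP1: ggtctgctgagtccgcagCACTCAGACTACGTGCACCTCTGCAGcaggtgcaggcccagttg
spliced XBP1: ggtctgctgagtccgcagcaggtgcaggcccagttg
A script found the letters CNGCAGN, known as the core of the IRE1 cleavage loop, at 3 places in this stretch. CCGCAGC and CTGCAGC span the ends of the annotated run, and CAGCAGG overlaps the second of them. The letters CAG stand just before the capitals and also end them. A run that starts at the earlier CAG therefore gives the same joined stretch, and the exact cut was not tested. Removal shifts the reading frame, and the annotated coding sequence has 261 codons in the unspliced form and 376 in the spliced form. The counts were per gene, so they give total XBP1 and do not separate these forms.

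XBP1 had 447 and 484 CPM with the CELF2 ASO, against 460 and 457 CPM with the control ASO. The controls fell between the CELF2 ASO libraries, so the groups overlap. The log2 fold change was 0.02 (SE 0.07, 95% interval -0.15 to 0.19, edgeR adjusted p = 0.82), and its sign changed between settings. Counts of ERN1 per count of XBP1 were 2.50 and 2.09 within the CELF2 ASO libraries, against 0.459 and 0.460 within the control libraries. This ratio does not depend on how libraries are scaled, and both CELF2 ASO libraries lay above both controls.

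The genes around IRE1 moved in both directions, as did all tested genes (27.6% called higher and 28.0% lower). Of 11 genes for the joining of XBP1 RNA and for IRE1 regulation, 2 rose and 5 fell (median log2 fold change -0.23). The median was -0.087 without CELF2 ASO library 1 and -0.11 with library totals alone. RTCB encodes the ligase that joins the cut ends of XBP1 mRNA. It had 144 and 204 CPM with the CELF2 ASO, against 293 and 306 CPM with the control ASO, and fell (log2 fold change -0.78, SE 0.16, edgeR adjusted p = 0.00688). Its partners in the tRNA ligase complex DDX1 and FAM98B were each 2.24-fold lower (edgeR adjusted p = 2.62e-05 and 9.23e-05). A further subunit gene, RTRAF, fell 1.17-fold (edgeR adjusted p = 0.0353), but not without control library 1 (adjusted p = 0.143) and without control library 2 (adjusted p = 0.323). ZBTB8OS, the archease cofactor of the ligase, had 33.9 and 35.8 CPM against 38.1 and 35.3 CPM and did not pass. Counts of ERN1 per count of RTCB were 7.79 and 4.95 with the CELF2 ASO, against 0.719 and 0.687 with the control.

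Among genes of proteins that bind or regulate IRE1, TRAF2, SEC63 and TMBIM6 passed the test, and SEC62 and DAB2IP did not. TRAF2, an adaptor that links active IRE1 to kinase signalling, was 1.54-fold lower (log2 fold change -0.63, edgeR adjusted p = 0.000444). TMBIM6, or BAX inhibitor-1, which binds and dampens IRE1, had 665 and 794 CPM with the CELF2 ASO, against 488 and 498 CPM with the control ASO, and rose 1.48-fold (edgeR adjusted p = 0.00191). SEC63, a translocon partner reported to restrain IRE1, rose 1.76-fold (edgeR adjusted p = 8.33e-05), while SEC62, another translocon partner, had 117 and 122 CPM against 121 and 128 CPM. DAB2IP, a scaffold of TRAF2 signalling, had 1.23 and 2.01 CPM against 2.18 and 1.75 CPM.

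Genes that lean on spliced XBP1 for their induction mostly rose. Of 14 such genes, 11 were called higher and 0 lower, beside 27.6% and 28.0% of all tested genes. The median log2 fold change was 0.80, or 0.91 with library totals alone, beside 0.04 and 0.16 over all tested genes. DNAJB9, a co-chaperone that keeps IRE1 inactive, had 90.3 and 125 CPM with the CELF2 ASO, against 26.3 and 26.3 CPM with the control ASO. This was a 4.10-fold rise (SE 0.15 on the log2 scale, edgeR adjusted p = 5.12e-05). EDEM1, which marks misfolded glycoproteins for degradation, rose 3.75-fold, with 522 and 501 CPM against 138 and 135 CPM (edgeR adjusted p = 5.65e-06). DNAJC3, an ER co-chaperone, and ERLEC1, an ER lectin, rose 2.49-fold and 2.36-fold (edgeR adjusted p = 3.66e-05 and 2.88e-05). The 3 that did not pass were SEC31A (181 and 192 CPM, against 166 and 173 CPM), SEC61B (130 and 128 CPM, against 133 and 143 CPM) and SRPRB (156 and 154 CPM, against 157 and 158 CPM).

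IRE1 can also degrade other ER-bound mRNAs, a process called RIDD. Of 7 listed substrates, 4 passed the filter on low counts, and SCARA3, PDGFRB and SPARC were below 0.5 CPM in every library. BLOC1S1, the substrate most often used as a readout, had 14.5 and 14.1 CPM with the CELF2 ASO, against 13.9 and 14.5 CPM with the control ASO. The groups overlap, and the log2 fold change was 0.01 (SE 0.11, edgeR adjusted p = 0.937). COL6A1, a collagen gene, fell 7.57-fold (2.67 and 1.63 CPM, against 15.3 and 17.8 CPM, edgeR adjusted p = 4.26e-05). CD59, a complement regulator, fell 1.34-fold (edgeR adjusted p = 0.00804, or 0.112 without control library 2). TNFRSF10B, the death receptor DR5, rose 4.08-fold (53.1 and 66.4 CPM, against 13.9 and 15.4 CPM, edgeR adjusted p = 2.49e-05).

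ATF6 (ENSG00000118217, GRCh38 chr1:161766294-161964070, plus strand) encodes the ER-held transcription factor that drives ER chaperone genes after release. It had 126 and 120 CPM with the CELF2 ASO, against 158 and 163 CPM with the control ASO. Both CELF2 ASO libraries lay below both controls, and the means were 123 ± 4.23 and 161 ± 3.75 CPM (SD, n = 2 each). ATF6 fell 1.31-fold (log2 fold change -0.38, SE 0.07, 95% interval -0.55 to -0.22, edgeR adjusted p = 0.00308). Without control library 2 the value was -0.39 and the call was lost (edgeR adjusted p = 0.0617).

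ATF6B (ENSG00000213676, GRCh38 chr6:32115264-32128253, minus strand) encodes the paralog of ATF6, a weaker activator that is processed in the same way. It had 138 and 149 CPM with the CELF2 ASO, against 85.7 and 86.4 CPM with the control ASO. Both CELF2 ASO libraries lay above both controls, the opposite order to ATF6. ATF6B rose 1.67-fold (log2 fold change 0.74, SE 0.08, 95% interval 0.56 to 0.91, edgeR adjusted p = 0.000174). Counts of ATF6B per count of ATF6 were 1.09 and 1.24 within the CELF2 ASO libraries, against 0.542 and 0.529 within the control libraries. Its exons overlap those of TNXB, which had 19 and 19 counts against 6 and 4.

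Of 12 genes that lean on ATF6, 9 rose and 1 fell, beside 27.6% and 28.0% of all tested genes. Their median log2 fold change was 0.54, or 0.66 with library totals alone. It was 0.47 without control library 1 and also 0.47 without CELF2 ASO library 2. SEL1L, the scaffold of the ER degradation ligase, rose 4.31-fold, with 611 and 668 CPM with the CELF2 ASO against 143 and 153 CPM with the control ASO (edgeR adjusted p = 6.33e-06). HERPUD1, another part of that machinery, rose 4.12-fold (edgeR adjusted p = 5.48e-06). HYOU1 rose 3.01-fold (edgeR adjusted p = 1.01e-05). HSP90B1, or GRP94, rose by 0.58 on the log2 scale (edgeR adjusted p = 0.000528). HSPA5, the chaperone BiP, rose by 0.50 (edgeR adjusted p = 0.00287, or 0.0779 without control library 1). CALR, the chaperone calreticulin, had 1579 and 1598 CPM against 1418 and 1470 CPM and did not pass (edgeR adjusted p = 0.131), though it was called without CELF2 ASO library 1 (adjusted p = 0.000394) or CELF2 ASO library 2 (adjusted p = 0.0116). SDF2L1, a small ER co-chaperone, fell by 0.59 on the log2 scale (20.0 and 19.5 CPM, against 28.5 and 31.1 CPM, edgeR adjusted p = 0.00174).

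MBTPS1 (ENSG00000140943, GRCh38 chr16:84053761-84116906, minus strand) encodes the site-1 protease, which makes the first cut in ATF6, the CREB3 family and the sterol factors SREBF1 and SREBF2. It had 95.6 and 97.0 CPM with the CELF2 ASO, against 101 and 94.0 CPM with the control ASO. The groups overlap, and the log2 fold change was -0.02 (SE 0.08, 95% interval -0.20 to 0.16, edgeR adjusted p = 0.826).

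MBTPS2 (ENSG00000012174, GRCh38 chrX:21839636-21885424, plus strand) encodes the site-2 protease, which cuts within the membrane after the first cut. It had 40.6 and 39.2 CPM with the CELF2 ASO, against 22.7 and 24.3 CPM with the control ASO. The groups do not overlap, and MBTPS2 rose 1.70-fold (log2 fold change 0.76, SE 0.09, 95% interval 0.55 to 0.97, edgeR adjusted p = 0.00034). Counts of MBTPS2 per count of MBTPS1 were 0.424 and 0.404 with the CELF2 ASO, against 0.224 and 0.259 with the control. The gene YY2 lies on the same strand with overlapping exons and had 62 and 43 counts against 43 and 21.

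A list of 9 genes around the site proteases mixes their substrates and cofactors with HCFC1 and CREBZF, which bind CREB3 and HCFC1. Of these 9, 3 rose and 4 fell (median log2 fold change -0.01), beside 27.6% and 28.0% of all tested genes. The sign of this median depended on the scaling, with 0.11 from library totals alone, and it was -0.15 without control library 1 and -0.17 without CELF2 ASO library 1. The sterol factor gene SREBF2 rose 1.39-fold (796 and 800 CPM, against 576 and 575 CPM, edgeR adjusted p = 0.00087). SCAP, which escorts the sterol factors to the proteases, fell 1.55-fold (edgeR adjusted p = 0.00038). The escort's ER anchors moved oppositely, INSIG1 down 1.42-fold (edgeR adjusted p = 0.000912) and INSIG2 up 1.64-fold (edgeR adjusted p = 0.00253). GNPTAB, a Golgi enzyme precursor cut by the site-1 protease, fell 1.90-fold (edgeR adjusted p = 0.000236). HCFC1, a coregulator that binds CREB3, fell 2.50-fold, with 422 and 361 CPM with the CELF2 ASO against 946 and 1012 CPM with the control ASO (edgeR adjusted p = 3.79e-05). CREBZF, another factor that binds HCFC1, rose 1.40-fold (edgeR adjusted p = 0.0178, or 0.152 without control library 1 and 0.0864 without control library 2).

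CREB3 (ENSG00000107175, GRCh38 chr9:35732335-35737004, plus strand) encodes Luman, an ER-held relative of ATF6. It had 53.9 and 65.6 CPM with the CELF2 ASO, against 36.0 and 35.6 CPM with the control ASO. Both CELF2 ASO libraries were above both controls, with a wider gap between them (59.8 ± 8.23 CPM) than between the controls (35.8 ± 0.297 CPM, SD, n = 2 each). CREB3 rose 1.67-fold (log2 fold change 0.74, SE 0.11, 95% interval 0.48 to 0.99, edgeR adjusted p = 0.000965). Its exons overlap on the opposite strand those of TLN1 (19382 and 18777 counts, against 20161 and 16545) and GBA2 (1707 and 1580 counts, against 1368 and 1306). Whether counting used strand is not given in the sources used here, so its count is uncertain.

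CREB3L2 (ENSG00000182158, GRCh38 chr7:137874979-138002067, minus strand) encodes BBF2H7, which in mouse cartilage drives genes of ER-to-Golgi transport. It had 347 and 341 CPM with the CELF2 ASO, against 183 and 183 CPM with the control ASO. The libraries of each group lay close together and the groups were far apart. CREB3L2 rose 1.88-fold (log2 fold change 0.91, SE 0.07, 95% interval 0.75 to 1.07, edgeR adjusted p = 4.44e-05). Counts of CREB3L2 per count of ATF6 were 2.76 and 2.84 with the CELF2 ASO, against 1.16 and 1.12 with the control. Counts of CREB3L2 per count of CREB3 were 6.44 and 5.20, against 5.08 and 5.14. The groups did not overlap there, but the lower CELF2 ASO value lay close to the controls.

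The other family members differed in level. CREB3L4, a further ER-held factor of the family, rose 2.27-fold (31.0 and 37.0 CPM, against 15.3 and 14.6 CPM, edgeR adjusted p = 0.000145). CREB3L1 was near the detection limit, with 10 and 2 counts after the CELF2 ASO against 22 and 35 counts after the control ASO, and was called lower (log2 fold change -2.24, SE 0.58, edgeR adjusted p = 0.0134). CREB3L3 and ERN2, the gut form of IRE1, were below 0.3 CPM in every library and were not tested.

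WFS1 (ENSG00000109501, GRCh38 chr4:6269849-6303265, plus strand) encodes wolframin, an ER membrane protein that takes part in calcium balance and promotes the breakdown of ATF6. It had 58.7 and 57.8 CPM with the CELF2 ASO, against 47.3 and 46.9 CPM with the control ASO. The groups do not overlap, and WFS1 rose 1.24-fold (log2 fold change 0.31, SE 0.08, 95% interval 0.13 to 0.48, edgeR adjusted p = 0.0115). The call was lost without control library 1 (edgeR adjusted p = 0.193), without control library 2 (edgeR adjusted p = 0.217), without the filter on low counts (edgeR adjusted p = 0.0541) and in DESeq2 (adjusted p = 0.0560).

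Of 9 partners of WFS1 and ER calcium genes, 3 rose and 3 fell, beside 27.6% and 28.0% of all tested genes. The list median was 0.09 on the log2 scale, or 0.20 with library totals alone. ITPR1, an ER calcium release channel, rose 4.59-fold, with 88.1 and 142 CPM with the CELF2 ASO against 25.3 and 24.8 CPM with the control ASO (edgeR adjusted p = 0.00155). CISD2, the gene of the second Wolfram syndrome locus, rose 1.61-fold (edgeR adjusted p = 0.000793). The calcium pump genes ATP2A2 and ATP2A3 fell 1.41-fold and 2.04-fold (edgeR adjusted p = 0.000701 and 0.000647), and the plasma membrane channel gene ORAI1 fell 2.09-fold (edgeR adjusted p = 0.000141). ITPR3 rose 1.25-fold (edgeR adjusted p = 0.00798), a call lost without control library 1 (adjusted p = 0.124) or control library 2 (adjusted p = 0.222).

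The third sensor of the response is PERK, encoded by EIF2AK3, which phosphorylates the initiation factor encoded by EIF2S1. EIF2AK3 had 58.3 and 67.0 CPM with the CELF2 ASO, against 25.8 and 25.9 CPM with the control ASO, and rose 2.42-fold (edgeR adjusted p = 4.62e-05). Counts of ERN1 per count of EIF2AK3 were 19.2 and 15.1 with the CELF2 ASO, against 8.17 and 8.13 with the control. Beside 27.6% higher and 28.0% lower over all tested genes, 7 of 8 genes listed as the PERK arm rose and 1 fell. Their median log2 fold change was 2.41, or 2.53 with library totals alone. They include ATF4, the arm's main transcription factor (4.79-fold, edgeR adjusted p = 5.48e-06), TRIB3, a pseudokinase (5.92-fold, edgeR adjusted p = 4.73e-06), and CHAC1, a glutathione-degrading enzyme (11.2-fold, edgeR adjusted p = 4.17e-06). DDIT3, or CHOP, had 49.4 and 69.4 CPM with the CELF2 ASO, against 2.04 and 2.64 CPM with the control ASO (25.5-fold higher, edgeR adjusted p = 1.03e-05). EIF2S1 fell 1.81-fold (edgeR adjusted p = 0.000234). The counts measure RNA alone, so whether PERK itself acted on the genes of this list was not tested.

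**Figure D3:**
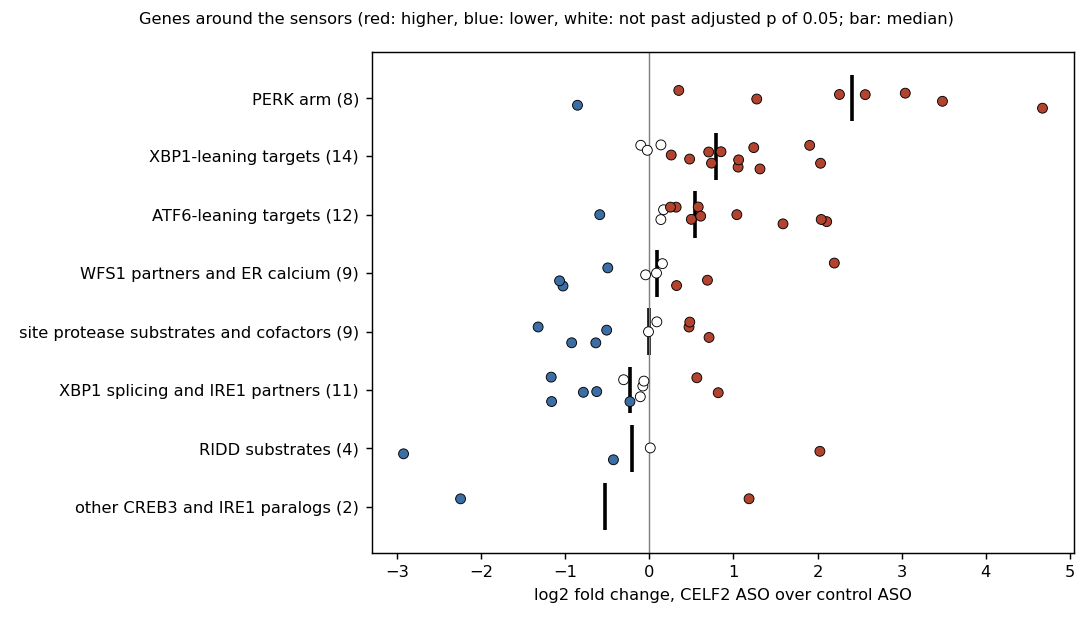
Log2 fold change (horizontal axis, CELF2 ASO over control ASO) of each tested gene in 8 lists around the sensors, with the number tested in parentheses and the list median as a bar. The genes listed as the PERK arm have a median of 2.41 and the XBP1-leaning genes 0.80. The ATF6-leaning genes have 0.54 and the IRE1 partners -0.23, beside 0.04 for all tested genes.

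Levels were compared between the 9 genes as CPM per kb of merged exons. XBP1 was the highest in both groups, at 154 ± 8.60 CPM per kb with the CELF2 ASO and 151 ± 0.792 with the control (SD, n = 2 each). ERN1 was next with the CELF2 ASO, at 98.1 ± 7.01 CPM per kb, whereas in the controls it stood at 19.4 ± 0.0501, between ATF6 and CREB3. Behind ERN1 in the CELF2 ASO libraries came ATF6B at 39.5 ± 2.13, CREB3L2 at 39.2 ± 0.528 and CREB3 at 31.4 ± 4.33 CPM per kb. ATF6B and CREB3L2 did not differ beyond their spread there. ATF6 followed at 15.6 ± 0.536, WFS1 at 12.9 ± 0.142, MBTPS1 at 9.40 ± 0.0958 and MBTPS2 at 4.47 ± 0.107 CPM per kb.

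In the control libraries ATF6B was behind XBP1, at 23.7 ± 0.147 CPM per kb, and then CREB3L2 at 20.9 ± 0.00446 and ATF6 at 20.4 ± 0.475. CREB3L2 and ATF6 lay about as far apart as the spread of ATF6. CREB3 stood at 18.8 ± 0.156, WFS1 at 10.4 ± 0.0596, MBTPS1 at 9.55 ± 0.520 and MBTPS2 at 2.63 ± 0.124 CPM per kb. MBTPS2 was the lowest in both groups. With the longest transcript as the length, the order in the middle changed: MBTPS1 took rank 6 with the CELF2 ASO, ahead of ATF6 and WFS1 (22.2, 16.4 and 15.9 CPM per kb), and in the controls ERN1 took rank 3 and MBTPS1 rank 5.

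**Figure D4:**
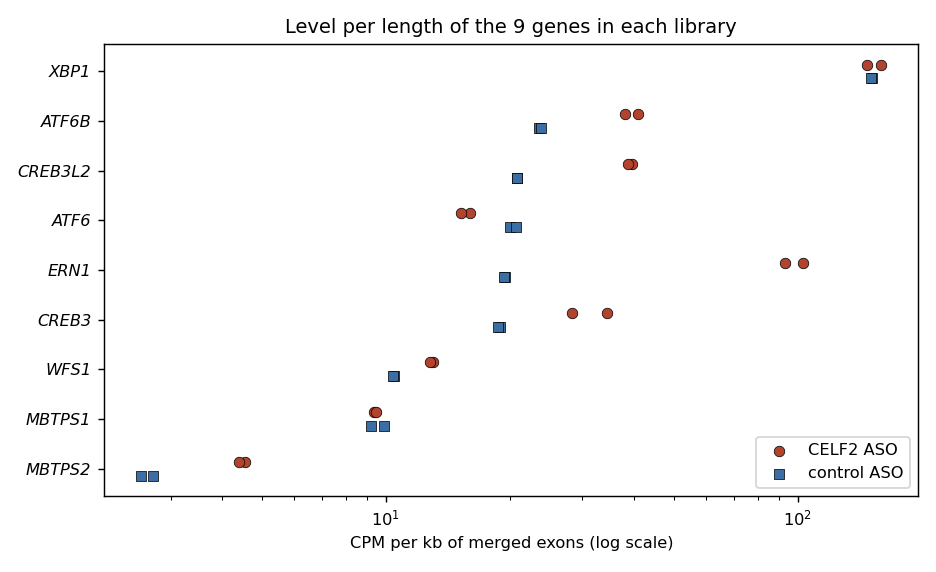
Level of each gene per kb of merged exons (horizontal axis, CPM per kb, log scale) in the 2 CELF2 ASO libraries (red circles) and the 2 control libraries (blue squares), ordered by the control mean. XBP1 is at the top in both groups and ERN1 moves to 98.1 CPM per kb with the CELF2 ASO, against 19.4 with the control.

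Profiles over the 4 libraries were compared with those of the 69 tested genes of the lists, as the Euclidean distance between centred log2 CPM values. With 2 libraries per group, nearness largely follows the fold change. ERN1 was nearest to ATF4 (distance 0.222), and ATF6 to CD59 (distance 0.111). The log2 fold changes of ERN1 and ATF4 were 2.34 and 2.26. Within the CELF2 ASO pair they ran opposite ways, with ERN1 at 1119 and 1011 CPM and ATF4 at 1153 and 1270 CPM. XBP1 was nearest to SRPRB and MBTPS1 to ZBTB8OS, all 4 of which failed the test of the fold change. ATF6B was nearest to CISD2, MBTPS2 to SEC63, CREB3 to SSR3, CREB3L2 to SYVN1 and WFS1 to SSR1. SSR1 and SSR3 encode subunits of the ER translocon-associated complex, and SYVN1 the degradation ligase HRD1. SYVN1 had 425 and 390 CPM with the CELF2 ASO, against 228 and 224 CPM with the control ASO.

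Promoter windows are shown for XBP1 and ERN1, since one holds the ER stress response element (ERSE) and the other does not. ERSE is the site bound by ATF6 with NF-Y, and in other studies also by XBP1. RefSeq windows on GRCh38.p14 cover 250 bases before and 50 after each transcription start, and all 9 genes matched, with 11 windows. The XBP1 window is chr22:28800520-28800819 and the ERN1 window chr17:64130095-64130394, both on the minus strand, written 5′ to 3′ with ERSE in capitals.
XBP1: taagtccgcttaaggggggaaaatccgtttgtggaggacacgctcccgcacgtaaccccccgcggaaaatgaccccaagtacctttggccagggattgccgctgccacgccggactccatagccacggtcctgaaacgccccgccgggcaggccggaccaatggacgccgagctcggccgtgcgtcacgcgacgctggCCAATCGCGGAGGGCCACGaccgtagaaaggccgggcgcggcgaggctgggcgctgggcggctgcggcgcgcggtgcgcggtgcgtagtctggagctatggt
ERN1: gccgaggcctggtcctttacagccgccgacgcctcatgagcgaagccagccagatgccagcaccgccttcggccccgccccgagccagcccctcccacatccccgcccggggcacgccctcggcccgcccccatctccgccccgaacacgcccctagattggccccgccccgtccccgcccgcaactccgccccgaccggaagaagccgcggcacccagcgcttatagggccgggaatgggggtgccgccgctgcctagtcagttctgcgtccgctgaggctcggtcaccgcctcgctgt
ERSE, searched as CCAAT, any 9 bases and then CCACG, on both strands, was found in 27 of all 35116 windows (0.0769%). Among the 9 genes XBP1 alone held it, from position -52 to -34 relative to the start. The second XBP1 window held none of the letters searched.

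The other motifs searched, on both strands, were ERSE-II (ATTGG, any 1 base and then CCACG, 0.0541% of windows), the XBP1 site core (TGACGTGG, 0.729%), the cyclic AMP element (CRE, TGACGTCA, 1.85%), the ATF4 element (TTGCATCA, 0.866%) and the CCAAT box (CCAAT, 34.6%). A CCAAT box lies within every ERSE and, on the other strand, within every ERSE-II, and the XBP1 core and the CRE share the letters TGACGT. CREB3L2 held the CRE at -179 to -172 in the window chr7:138002037-138002336. The ERN1 window held a CCAAT box alone, at -93 to -89 on the other strand. ATF6, MBTPS1, MBTPS2 and CREB3 held none of these letters.

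**Figure D5:**
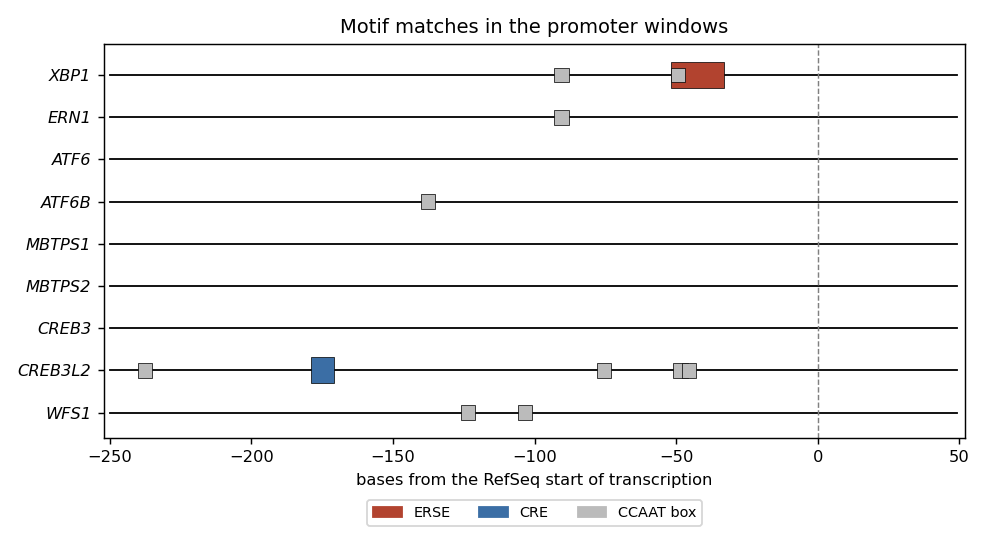
Motif matches in the first RefSeq promoter window of each gene, by distance in bases from the transcription start (horizontal axis, dashed line at 0), with ERSE in red, CRE in blue and CCAAT boxes in grey. XBP1 has ERSE from -52 to -34 and CREB3L2 has CRE from -179 to -172.

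The same element in XBP1 and in ATF6-leaning genes is shown to set the sites side by side, each 5′ to 3′ on the strand that reads as the motif, on GRCh38.p14, with the fixed letters in capitals. These genes were named for the motif. Of the 12 ATF6-leaning genes, 5 held ERSE, which is 41.7%, beside 0.0916% of all 27305 symbols with a promoter window. The list was picked as ATF6-leaning and ERSE is a site bound by ATF6, so this share is no independent test.
XBP1, chr22:28800599-28800625, minus strand: ctggCCAATcgcggagggCCACGaccg
HSPA5, chr9:125241387-125241413, minus strand: ttcaCCAATcggcggcctCCACGacgg
HSP90B1, chr12:103930212-103930238, plus strand: ctgaCCAATcggaaggagCCACGcttc
HSP90B1, chr12:103930317-103930343, minus strand: cccaCCAATcgcgccgcaCCACGcacc
PDIA6, chr2:10812849-10812875, minus strand: cggaCCAATgagccgcagCCACGgctt
CRELD2, chr22:49918550-49918576, minus strand: tggcCCAATccgagttcgCCACGagag
CALR, chr19:12938380-12938406, minus strand: ccgaCCAATgatggtcgaCCACGcgtg
The log2 fold changes were 0.02 for XBP1, 0.50 for HSPA5, 0.58 for HSP90B1, 0.32 for PDIA6, 0.25 for CRELD2 and 0.14 for CALR, the first and last of which did not pass. PDIA6, a disulfide isomerase, lost its call without either control library (edgeR adjusted p = 0.230 and 0.133), and CRELD2, a secreted ER stress protein, did so too (edgeR adjusted p = 0.302 and 0.298). ERSE-II was held by other genes of the list.
HERPUD1, chr16:56932021-56932039, plus strand: gccgATTGGgCCACGttgg
HYOU1, chr11:119057376-119057394, plus strand: tgggATTGGaCCACGtcac
HYOU1, chr11:119057270-119057288, plus strand: actcATTGGaCCACGtccc
SDF2L1, chr22:21642110-21642128, minus strand: tttgATTGGtCCACGcttc
HERPUD1 and HYOU1 rose by 2.04 and 1.59 on the log2 scale, and SDF2L1 fell by 0.59. Over all 25 symbols with ERSE in a promoter window, 16 were tested, of which 10 were called higher and 1 lower. Among all tested genes the shares were 27.6% and 28.0%. The median log2 fold change of the 16 genes was 0.37, beside 0.04 over all tested genes. These 16 genes ranged between -0.50 and 1.59. They include XBP1 and the 5 ATF6-leaning genes with ERSE, so this is not a separate result.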

How the data were processed

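Gene-level read counts were deposited by the authors as 1 table. Per the submitters' processing notes, the tools were bcl2fastq, STAR 2.7.11b, Subread, featureCounts 2.0.8 and Salmon 1.10.0, with GRCh38. For the annotation release, strand setting and handling of multi-mapped reads: not given in the sources used here. The labels name both poly(A) selection and ribosomal RNA removal, so the method is unsettled. Of 79029 rows, 97 were no Ensembl gene, held 1 to 3 counts per library and were left out. Symbols came from the reference gene tables for 61481 IDs, and positions and lengths from GENCODE 29 for 57356.

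Counts were filtered with filterByExpr (minimum count 10, minimum total 15), scaled by TMM and tested with edgeR 4.0.16 (quasi-likelihood F test, two-sided, Benjamini-Hochberg over all tested genes) in R 4.3.3. CPM uses TMM-scaled totals. Alternatives used limma 3.58.1 and DESeq2 1.42.0, other scalings and filters, a replicate block and leaving out each library. Named genes are the 9 members, the nearest profile to each member and a choice from each list. That choice took the genes with the smallest adjusted p in each direction and those needed to describe the list. Genes shown with their ERSE or ERSE-II sites were also named for the motif. The members and lists were chosen with earlier results of these data known.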

Additional observations from a re-analysis of the deposited data

How the results depend on the processing

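Over the 12 settings tried for each of the 9 genes, 94 of 108 values kept their direction and side of the threshold. ERN1, ATF6B, MBTPS2, CREB3 and CREB3L2 did so in all 12. XBP1, which did not pass in any setting, turned to -0.0021 with RLE size factors and with DESeq2 and to -0.034 with no filter on low counts, and ranged between -0.054 and 0.084 with 1 library left out. MBTPS1, also never called, was 0.094 with library totals alone, 0.030 with a filter of 1 CPM, and between -0.10 and 0.0060 with 1 library left out. ATF6 ranged between -0.44 and -0.37 with 1 library left out, and members called lower ranged between 0 and 1. WFS1 was 0.25 with no filter, 0.28 in DESeq2 and between 0.27 and 0.30 with 1 library left out. Genes called higher ranged between 3564 and 6214 with 1 library left out. Without a library, the spread comes from the remaining pair alone, and the lone library is assumed to vary like it. Among the named neighbours, BLOC1S1 was -0.013 with RLE size factors and DESeq2, -0.044 with no filter, and between -0.048 and 0.015 with 1 library left out. SRPRB was 0.093 with library totals and 0.029 with a filter of 1 CPM, and ZBTB8OS with library totals was 0.038. With the filter of 1 CPM, CREB3L1 was not tested and the lower count of its list was 0. Library totals alone put the median of all tested genes at 0.16, against 0.04. XBP1 stood at 0.14, ATF6 at -0.27 and WFS1 at 0.42 in that setting. The label numbers were not shown to pair libraries (correlation of same-numbered deviations 0.0599). The fit with a replicate block called 5411 genes higher and 5379 lower and changed no call among the 9 genes, but lost RTRAF (adjusted p = 0.0606) and CRELD2 (adjusted p = 0.0533). RTRAF was also lost with library totals alone (adjusted p = 0.228), the filter of 1 CPM (0.0666) and DESeq2 (0.0745), and CRELD2 with no filter (0.144) and DESeq2 (0.127). The CELF2 ASO pair differed by a chi-square of 18.5 per degree of freedom over genes, and the control pair by 3.38. With 2 libraries per group, the spread of each group rests on 1 difference.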
